A study of Mus musculus with 9 samples.

Results

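The 10 genes described here encode signals by which a tumor cell restrains or invites attack by macrophages, T cells and natural killer (NK) cells. They are Cd47, Sirpa and Cd24a (phagocytosis), Cd274, Pdcd1lg2 and Cd276 (the B7 family), Pvr and Nectin2 (nectins), Lgals9 (a galectin) and Raet1e (an NKG2D ligand). They were chosen with earlier results of these data known and taken by gene symbol from the 16399 genes listed for each library. Their NCBI Gene numbers are 16423 (Cd47), 19261 (Sirpa), 12484 (Cd24a), 60533 (Cd274), 58205 (Pdcd1lg2), 102657 (Cd276), 52118 (Pvr), 19294 (Nectin2), 16859 (Lgals9) and 379043 (Raet1e). RNA was sequenced from 9 libraries of MC38, a mouse colon carcinoma line of C57BL/6 origin, with 3 replicates in each of 3 groups. MC38-P is the parental line. MC38-LM3a and MC38-LM3b are CRLM (colorectal cancer liver metastasis) derivatives recovered from liver lesions after 3 rounds of intrasplenic injection into C57BL/6 mice. The study calls these lines independently derived but names a single MC38-LM1 and a single MC38-LM2 line before them. Whether the earlier rounds were shared is not stated. All cells were labelled with a GFP-luciferase reporter and grown in high-glucose medium with serum. Each derivative is 1 line, and the replicates are called biological without a statement that they were separate cultures, so the p-values measure only the spread between these libraries, which may be technical.

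Cd47 on a tumor cell engages Sirpa on macrophages and delivers a "don't eat me" signal, and Cd24a is a sugar-bearing surface protein whose human counterpart acts in a similar way through a Siglec receptor. Cd274 (PD-L1) and Pdcd1lg2 (PD-L2) engage PD-1 and dampen T cells, and interferons are known inducers of Cd274. Pvr and Nectin2 are shared ligands of the activating receptor DNAM-1 and the inhibitory receptor TIGIT, Lgals9 is a ligand of Tim-3, and Raet1e is a stress-induced ligand that alerts NK cells through NKG2D.

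Levels are given in TPM, the length-scaled share of a library's transcripts that the authors deposited. Means ± SD are listed in the order MC38-P, then MC38-LM3a, then MC38-LM3b. The files hold no read counts, so depth is unknown. The number of genes at or above 1 TPM ran from 10875 to 11218, and Pearson correlations across genes between libraries from 0.985 to 0.998. Differences were tested with limma on log2(TPM + 1) over the 11287 genes that reached 1 TPM in 3 or more libraries, and a gene was called when its Benjamini-Hochberg adjusted p was under 0.05. A DEG (differentially expressed gene) also had an absolute log2 fold change above 1. The median log2 fold change of all tested genes was 0.00 for MC38-LM3a versus MC38-P but 0.21 for MC38-LM3b versus MC38-P, so members are also set against that shift. Libraries of 1 group differed along transcript length. The deviation of MC38-P replicate 3 from its group mean had a Spearman correlation of -0.62 with length across 11096 genes, against 0.51 and 0.41 for its partners. That of MC38-LM3a replicate 3 was 0.64, against -0.55 and -0.51, and the MC38-LM3b libraries lay between -0.01 and 0.02. Values corrected for length and GC content, which also centres each library, are therefore also given for the tested members and the pathway genes named, and the part of length in any result was not tested further. Defining markers of leukocytes (Ptprc, at most 0.09 TPM), macrophages (Csf1r, at most 0.14 TPM) and hepatocytes (Alb, at most 0.29 TPM) were near 0 in every library. The summed macrophage list, of which 4 of 8 genes were listed, ranged from 28.3 to 30.1 TPM in MC38-P, 34.6 to 41.5 TPM in MC38-LM3a and 40.4 to 45.9 TPM in MC38-LM3b, nearly all of it Cd68. The summed stellate cell and fibroblast list was 12.5 to 18.7, 5.44 to 7.74 and 8.00 to 8.32 TPM. Most of it in MC38-P was Col1a1 (10.4 to 16.0 TPM, against 3.52 to 5.03 and 4.17 to 4.44 TPM), whereas Pdgfrb was higher in MC38-LM3b (at least 3.48 TPM) than in MC38-P (at most 1.74 TPM). The part of either list in the results was not tested. In such bulk RNA, fewer cells of a type and less RNA per cell cannot be told apart. Of the labelled epithelial identity, Krt8 was at 744 TPM or more in every library, but Cdh1 and Vil1 did not exceed 0.13 TPM. The summed epithelial list, with 7 of 7 genes listed, ranged from 2002 to 2317 TPM in MC38-P, above the 1590 to 1810 TPM of MC38-LM3a and the 1583 to 1628 TPM of MC38-LM3b. Krt8, Krt18, Epcam (4.93 to 6.31 TPM in MC38-P, 1.87 to 2.40 TPM in the derivatives) and Cdx2 (1.80 to 2.86 and 0.28 to 0.92 TPM) were lower in every derivative library than in MC38-P. Krt19 was higher in MC38-LM3a (136 to 157 TPM) than in MC38-P (105 to 122 TPM), and the part of these genes in the results was not tested.

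Across the 8 members that could be tested, both derivatives carried more Cd274 and Raet1e RNA and less Cd24a RNA than MC38-P. Cd47, Cd276 and Lgals9 passed the test in MC38-LM3b versus MC38-P and not in MC38-LM3a versus MC38-P, although none of them passed in MC38-LM3b versus MC38-LM3a. Neither Pvr nor Nectin2 passed in any comparison. Because the members were chosen with earlier results of these data known, no enrichment is read from the counts that follow. For MC38-LM3a versus MC38-P, 3 of the 8 were called, 2 higher and 1 lower, where 28.0% of all tested genes were called (14.1% higher, 13.8% lower). For MC38-LM3b versus MC38-P, 6 of the 8 were called, 5 higher and 1 lower, where 46.7% of all tested genes were called (35.6% higher, 11.2% lower). The median log2 fold change of the 8 was 0.17 and 0.35, beside medians over all tested genes of 0.00 and 0.21. Cd274 was the 1 DEG among them in each comparison, where 2.89% and 3.93% of tested genes were DEGs. After the length and GC correction 5 members were called in each comparison, where 51.1% and 57.6% of genes with a length were called. In MC38-LM3a 6 members were called under quantile normalization and 6 under median centring, where 42.0% and 40.0% of tested genes were called. In MC38-LM3b the counts were 6 and 4, where 50.5% and 49.3% of tested genes were called. The groups did not overlap for 4 of the 8 in MC38-LM3a versus MC38-P and for 7 in MC38-LM3b versus MC38-P, as for 36.2% and 66.7% of all tested genes. Both comparisons share the MC38-P libraries, and the derivatives may share earlier rounds of selection, so the comparisons are not independent of each other. Sirpa and Pdcd1lg2 stayed below 1 TPM in every library and were not tested.

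**Figure D1:**
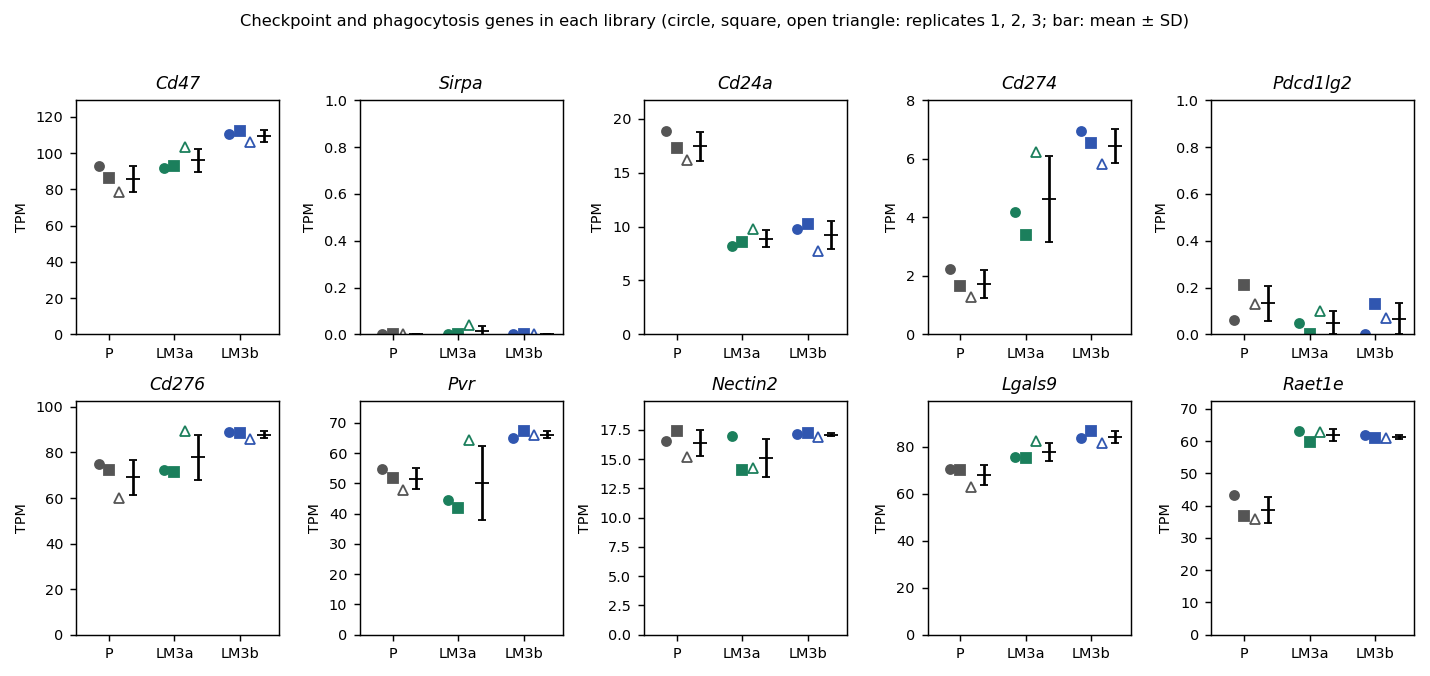
TPM (y axis, from 0) of the 10 genes in each library, grouped by line. Circles, squares and open triangles are replicates 1, 2 and 3, and black bars are the mean ± SD of 3 libraries. Cd24a lies between 16.2 and 18.9 TPM in MC38-P and at 10.2 TPM or less in every derivative library, whereas Cd274 and Raet1e are lowest in the 3 MC38-P libraries. Sirpa and Pdcd1lg2 are drawn on an axis that ends at 1 TPM.

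Cd47 had the highest level of the 10 genes in every group. The MC38-P replicates 1 to 3 held 92.8, 86.4 and 78.3 TPM, the MC38-LM3a replicates 92.0, 93.0 and 103 TPM, and the MC38-LM3b replicates 110, 112 and 106 TPM. MC38-LM3b lay above every MC38-P and MC38-LM3a library, while MC38-LM3a overlapped MC38-P. Cd47 rose in MC38-LM3b by a log2 fold change of 0.35 ± 0.08 (SE, limma adjusted p = 0.0044), or 1.28-fold on mean TPM, and this was 0.14 above the shift of all genes. The increase in MC38-LM3b did not hold after the length and GC correction, which gave 0.07 (limma adjusted p = 0.30), or after centring each library on its median, which gave 0.13 (limma adjusted p = 0.067), but passed under quantile normalization (0.24, limma adjusted p = 0.0027). In MC38-LM3a the log2 fold change was 0.16 (limma adjusted p = 0.15), which passed under quantile normalization (0.17, limma adjusted p = 0.019), under median centring (0.16, limma adjusted p = 0.035) and after correction (0.16, limma adjusted p = 0.037). Without MC38-P replicate 3 and MC38-LM3a replicate 3 it was 0.05 (limma adjusted p = 0.41).

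Sirpa, the receptor that reads Cd47, was listed at 0 TPM in 8 libraries and at 0.04 TPM in MC38-LM3a replicate 3. No difference can be read at that level.

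Cd24a was the only member called lower in a comparison with MC38-P over all 9 libraries. The MC38-P libraries held 18.9, 17.3 and 16.2 TPM, the MC38-LM3a libraries 8.23, 8.62 and 9.79 TPM, and the MC38-LM3b libraries 9.77, 10.2 and 7.70 TPM. Every derivative library was below every MC38-P library, and the derivatives overlapped each other. Cd24a fell in MC38-LM3a by 0.90 ± 0.12 (SE) on the log2 scale (limma adjusted p = 0.000423), 1.97-fold on mean TPM. In MC38-LM3b it fell by 0.86 ± 0.12 (SE, limma adjusted p = 0.000408), 1.89-fold on mean TPM, or by 1.07 relative to the shift of all genes. Few genes fell further, 2.00% of those tested in MC38-LM3a against 1.75% in MC38-LM3b. The decrease remained after the length and GC correction, at -1.04 and -1.09. The sources used here do not give how reads shared with similar gene copies were divided, so the absolute Cd24a level is uncertain to that extent.

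The other genes of these pathways were taken from lists chosen with earlier results of these data known, and the counts of each list stand beside the shares of all tested genes called that are given above. Of 11 genes for further "don't eat me" and inhibitory receptor signals, 9 were listed and 6 tested. In MC38-LM3a 2 rose and 2 fell, and in MC38-LM3b 4 rose and 1 fell, with medians of 0.16 and 0.43. After correction the counts were 4 and 2 in MC38-LM3a and 3 and 2 in MC38-LM3b. Ptpn6, which encodes the phosphatase SHP-1 that acts below inhibitory receptors, fell, at 14.0 ± 0.3 (SD, n = 3 here and below), 7.84 ± 0.39 and 9.16 ± 0.72 TPM (log2 fold changes -0.76 and -0.56, limma adjusted p = 0.000293 and 0.0013, with -0.76 and -0.69 after correction, both called). Siglecg, the mouse receptor usually paired with Cd24a, was near the 1 TPM filter, at 0.48 ± 0.20, 1.1 ± 0.31 and 1.12 ± 0.27 TPM. No MC38-P library reached 1 TPM (0.42, 0.32 and 0.70 TPM), so Siglecg passed the filter only through the derivatives. For that reason no rise is read from its test, although the gene is counted in the list. Its call (0.50 and 0.52, limma adjusted p = 0.037 and 0.021) was lost when any of 6 and of 4 of the 9 libraries was left out, with adjusted p up to 0.14, and in MC38-LM3b after correction (0.33, limma adjusted p = 0.12) but not in MC38-LM3a (0.53, limma adjusted p = 0.022).

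The remaining calls in that list concern genes named after their values were seen. Qpct and Qpctl encode glutaminyl cyclases, the latter of which modifies Cd47 at the site that Sirpa recognises. Qpctl stood at 13.1 ± 1.0, 15.3 ± 0.7 and 17.9 ± 2.0 TPM, and rose in MC38-LM3b (0.42, limma adjusted p = 0.0094). Qpct rose in both derivatives (0.38 and 0.60, limma adjusted p = 0.016 and 0.00086). The Qpct call in MC38-LM3a was lost without MC38-P replicate 2 (adjusted p = 0.059) and with only the groups compared in the fit (adjusted p = 0.064). The Qpctl call was lost without MC38-LM3b replicate 1 (adjusted p = 0.050), under quantile normalization (0.17, adjusted p = 0.16) and under median centring (0.20, adjusted p = 0.099). After the length and GC correction Qpctl was called in both derivatives (0.21 and 0.27, limma adjusted p = 0.036 and 0.010), as was Qpct (0.27 and 0.38, limma adjusted p = 0.0022 and 0.00018). Thbs1, a secreted ligand of Cd47, fell in MC38-LM3a from 33.0 ± 7.1 to 19.7 ± 4.9 TPM (-0.72, limma adjusted p = 0.013), but the groups overlapped and the call was lost without any of 4 libraries (MC38-P and MC38-LM3a replicates 1 and 2, adjusted p up to 0.061). Its difference in MC38-LM3b did not pass (-0.24, limma adjusted p = 0.28), and after correction both were called (-0.67 and -0.51, limma adjusted p = 5.1e-05 and 0.00028). Ptpn11, which encodes SHP-2, was called higher in MC38-LM3b (0.43, limma adjusted p = 0.021) and was lost without any of 4 libraries, MC38-P replicate 3 and each MC38-LM3b replicate (adjusted p up to 0.069). After correction that value was 0.14 and still called (limma adjusted p = 0.0093), and the value in MC38-LM3a moved from 0.12, which did not pass, to 0.18, which did (limma adjusted p = 0.0018).

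The list of "eat me" and engulfment genes holds both signals and receptors, and 17 of its 18 listed genes were tested. In MC38-LM3a 5 rose and 2 fell, and in MC38-LM3b 14 rose and 1 fell, with medians of 0.15 and 0.43, beside 35.6% of all tested genes called higher in MC38-LM3b and medians over all of 0.00 and 0.21. After correction 10 rose and 2 fell in MC38-LM3a, and 11 rose and 2 fell in MC38-LM3b. Calr encodes calreticulin, which marks cells for uptake when it is at the cell surface, and surface protein was not measured. Calr was named after its values were seen and rose, at 1148 ± 50, 1489 ± 14 and 1644 ± 34 TPM (0.38 and 0.52, limma adjusted p = 0.000322 and 3.1e-05, with 0.33 and 0.38 after correction, both called). Lrp1, the receptor for calreticulin, was at 57.8, 56.2 and 36.8 TPM in MC38-P, 64.5, 64.7 and 113 TPM in MC38-LM3a, and 125, 122 and 121 TPM in MC38-LM3b. It was a DEG in MC38-LM3b (1.30 ± 0.21 SE, limma adjusted p = 0.00089), and after correction its change of 0.96 was called but below the DEG limit. Its call in MC38-LM3a (0.65, limma adjusted p = 0.044) was lost when any of 6 libraries was left out, among them MC38-LM3a replicate 3 (0.38) and MC38-P replicate 3 (0.44). Without both it was 0.18 and after correction 0.86, both called.

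Mertk and Tyro3 encode receptors that bind phosphatidylserine through bridging proteins. Mertk was at 16.1 ± 3.5, 22.4 ± 5.6 and 32.9 ± 1.3 TPM, a DEG in MC38-LM3b (1.01, limma adjusted p = 0.0013) that did not pass in MC38-LM3a (0.45, limma adjusted p = 0.086) but did after correction (0.47, limma adjusted p = 0.0021). Mertk in MC38-LM3a was 0.27 without MC38-P replicate 3, 0.26 without MC38-LM3a replicate 3 and 0.09 without both, none of them called. Its corrected change in MC38-LM3b, 0.79, was called but below the DEG limit. Tyro3 fell in both, at 6.52 ± 0.69, 3.08 ± 0.35 and 3.83 ± 0.55 TPM (-0.88 and -0.64, limma adjusted p = 0.00067 and 0.0029, with -0.82 and -0.87 after correction, both called). The other decrease in MC38-LM3a, of the membrane-bound chemokine Cx3cl1 (-0.39, limma adjusted p = 0.048), was named after its values were seen and was lost in 7 of 9 fits with 1 library left out. After correction Cx3cl1 was called lower in both derivatives (-0.33 and -0.30, limma adjusted p = 0.0010 and 0.0017).

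Cd274 and Pdcd1lg2 are neighbours on mouse chromosome 19, with starts 43481 bases apart on the same strand, and only Cd274 reached 1 TPM. Their RefSeq promoter windows are shown because the genes share a locus and a receptor but not a level. Each runs over the 250 bases before the start on the plus strand of GRCm38.p6, an earlier build than the GRCm39 that the submitters' processing notes name, at chr19:29367188-29367437 for Cd274 and chr19:29410669-29410918 for Pdcd1lg2.
Cd274: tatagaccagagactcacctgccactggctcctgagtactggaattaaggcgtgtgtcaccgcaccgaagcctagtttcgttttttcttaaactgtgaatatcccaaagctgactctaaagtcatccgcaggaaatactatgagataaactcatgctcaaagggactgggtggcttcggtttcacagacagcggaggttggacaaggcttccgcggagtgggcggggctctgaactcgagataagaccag
Pdcd1lg2: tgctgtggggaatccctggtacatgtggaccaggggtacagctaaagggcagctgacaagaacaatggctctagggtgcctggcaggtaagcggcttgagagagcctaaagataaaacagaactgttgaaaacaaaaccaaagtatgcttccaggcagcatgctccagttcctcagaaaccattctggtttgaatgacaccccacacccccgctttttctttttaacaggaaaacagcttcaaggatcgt
Of the 10 members, 7 had an entry in the RefSeq promoter table. The windows were searched on both strands for an interferon response motif (GAAA, any 2 bases, GAAA), a gamma-activated site (TTCNNNGAA) and a RUNX motif (TGTGGT), each counted on its own, which 2.98%, 7.02% and 14.0% of 32851 windows of that length held. Neither window above held any of the 3. A match is a description of the letters, and its absence says only that these letters are not in the window.

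Cd274 was low in the parental line and higher in both derivatives. The MC38-P libraries held 2.24, 1.65 and 1.27 TPM, the MC38-LM3a libraries 4.20, 3.41 and 6.25 TPM, and the MC38-LM3b libraries 6.96, 6.54 and 5.82 TPM. No derivative library reached down to MC38-P, and MC38-LM3a replicate 3 lay within the MC38-LM3b range. The log2 fold change was 1.03 ± 0.19 (SE) in MC38-LM3a (limma adjusted p = 0.0025) and 1.46 ± 0.19 in MC38-LM3b (limma adjusted p = 0.000209). On mean TPM these were 2.69-fold and 3.74-fold, and 1.27% and 0.966% of tested genes rose further. Correction for length and GC content left 1.01 and 1.24. The MC38-LM3a value was 0.83 without MC38-LM3a replicate 3, 0.91 without MC38-P replicate 3 and 0.71 without both, each still called but below the DEG limit.

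Pdcd1lg2 was at 0.06, 0.21 and 0.13 TPM in MC38-P, 0.05, 0 and 0.10 TPM in MC38-LM3a, and 0, 0.13 and 0.07 TPM in MC38-LM3b. The groups overlapped, and no fold change is given at this level.

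Cd276 (B7-H3), a B7 protein of solid tumors with an unsettled receptor, was abundant. The MC38-P libraries held 74.9, 72.2 and 60.1 TPM, the MC38-LM3a libraries 72.5, 71.6 and 89.3 TPM, and the MC38-LM3b libraries 89.2, 88.5 and 86.0 TPM. MC38-LM3b lay above MC38-P throughout, and MC38-LM3a replicate 3 stood at the level of MC38-LM3b rather than of its own group. Cd276 rose in MC38-LM3b by 0.35 ± 0.10 (SE, limma adjusted p = 0.019), which was 0.14 above the shift of all genes. The call was lost without MC38-P replicate 3 (0.25, adjusted p = 0.061), MC38-LM3b replicate 1 (0.34, adjusted p = 0.061) or MC38-LM3b replicate 2 (0.35, adjusted p = 0.057). In MC38-LM3a the difference was 0.17 (limma adjusted p = 0.26). After correction the MC38-LM3a libraries came to 0.19, 0.22 and 0.25 above the MC38-P mean and the MC38-LM3b libraries to 0.15, 0.17 and 0.14, and both comparisons were called (0.22 and 0.16, limma adjusted p = 0.00073 and 0.0049).

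**Figure D2:**
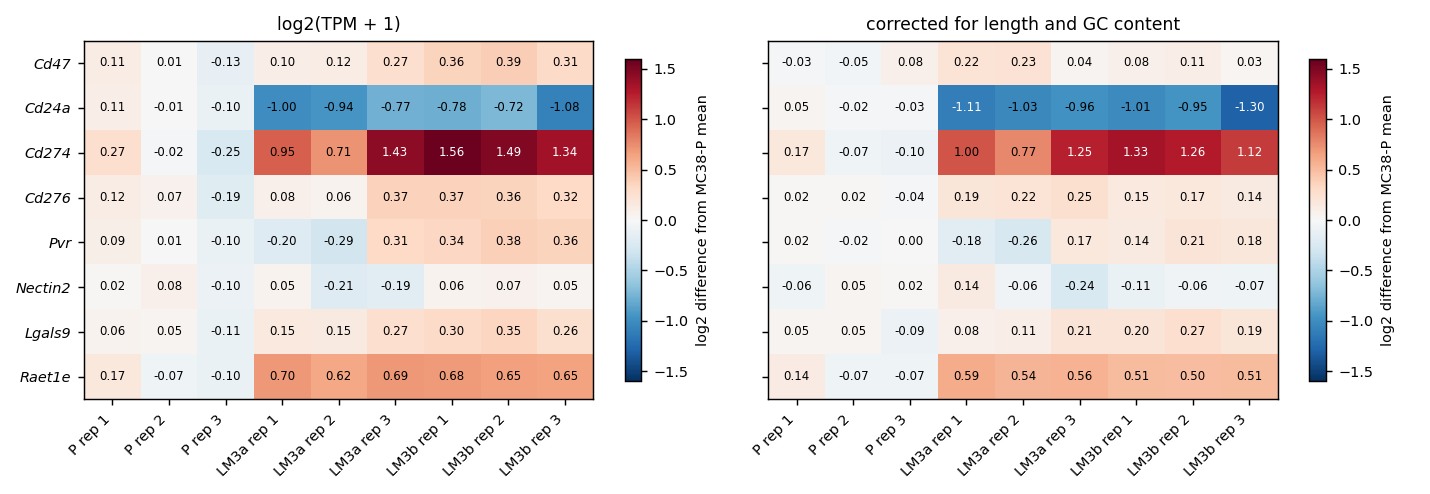
Log2 difference of each library (x axis) from the MC38-P mean for the 8 tested genes (y axis), on log2(TPM + 1) at left and after correction for transcript length and GC content at right. Red is higher and blue lower than the MC38-P mean. MC38-LM3a replicate 3 departs from its group for Cd276 (0.37 against 0.08 and 0.06) before the correction and less so after it (0.25 against 0.19 and 0.22), whereas for Pvr it stays apart (0.17 against -0.18 and -0.26).

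All 16 genes listed as regulators of Cd274 were tested. The list was not split by direction of regulation, so a count of rises or falls gives no direction for Cd274. In MC38-LM3a 3 rose and none fell, and in MC38-LM3b 9 rose and none fell, with medians of 0.04 and 0.44. The split differed after the length and GC correction, where 7 rose and 5 fell in MC38-LM3a and 10 rose and 3 fell in MC38-LM3b. Cmtm6, which protects PD-L1 from degradation, rose in both, at 19.7 ± 1.7, 32.2 ± 2.7 and 38.8 ± 1.0 TPM (0.68 and 0.95, limma adjusted p = 0.000386 and 3.6e-05). Ifngr1, a chain of the interferon gamma receptor named after its values were seen, rose, at 27.2 ± 0.1, 34.3 ± 1.2 and 39.96 ± 1.37 TPM (0.33 and 0.54, limma adjusted p = 0.0065 and 0.000245). The corrected changes of these 2 genes lay between 0.27 and 0.76, all called.

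Other B7 and butyrophilin genes were scarce. Of 9, 7 were listed and 3 tested, none rose, and the single call was a lower value of Vsir (VISTA) in MC38-LM3a (-0.38, limma adjusted p = 0.0497), which was named after its values were seen and was lost in 8 of 9 fits with 1 library left out. After correction Vsir was the single call in each derivative, lower in both (-0.33 and -0.37, limma adjusted p = 0.031 and 0.017). Of 9 co-stimulatory genes of the TNF superfamily, 4 were tested, of which 2 rose in MC38-LM3a and 4 in MC38-LM3b, with medians of 0.34 and 0.49, and 2 rose in each after correction. Tnfrsf14 (HVEM), the ligand of BTLA, rose, at 3.24 ± 0.52, 7.11 ± 1.51 and 10.98 ± 0.64 TPM (0.93 and 1.51, limma adjusted p = 0.0011 and 4.0e-05) and was a DEG in the latter, also after correction, where the MC38-LM3a value was 0.88 and called. Tnfsf9 (4-1BB ligand) was called in both, at 19.7 ± 2.4, 25.9 ± 2.5 and 24.9 ± 0.9 TPM (0.38 and 0.33, limma adjusted p = 0.022 and 0.027), calls lost without any of 3 and of 5 libraries (adjusted p up to 0.089). On median-centred values the MC38-LM3b difference was 0.11 (limma adjusted p = 0.24), and after correction the differences were 0.33 and 0.29 (limma adjusted p = 0.015 and 0.022). The calls of Tnfsf4 and Cd40 in MC38-LM3b, genes named after their values were seen, were lost after correction (0.43 and 0.06, limma adjusted p = 0.10 and 0.48).

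Pvr and Nectin2 are ligands of the same pair of receptors, and their levels are given in turn. The Pvr levels were 54.8, 51.7 and 47.8 TPM in MC38-P, 44.5, 41.8 and 64.2 TPM in MC38-LM3a, and 65.1, 67.2 and 66.0 TPM in MC38-LM3b. MC38-LM3b was above every MC38-P library, and the MC38-LM3a replicates lay on both sides of MC38-P. The log2 fold change was 0.36 ± 0.14 (SE) in MC38-LM3b (limma adjusted p = 0.0505) and -0.06 in MC38-LM3a (95% interval -0.36 to 0.24, limma adjusted p = 0.79). A single library decided the MC38-LM3a call. Without MC38-LM3a replicate 3, Pvr was lower in MC38-LM3a (-0.25, limma adjusted p = 0.026) and higher in MC38-LM3b (0.36, limma adjusted p = 0.0010), where 37.4% and 59.0% of all tested genes were called. Pvr in MC38-LM3b was also called without MC38-LM3a replicate 2 (limma adjusted p = 0.036) and when only MC38-LM3b and MC38-P were fitted (limma adjusted p = 0.0025). After correction the values were -0.09 and 0.18, neither called.

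Nectin2 was at 16.6, 17.4 and 15.2 TPM in MC38-P, 17.0, 14.1 and 14.3 TPM in MC38-LM3a, and 17.1, 17.2 and 16.9 TPM in MC38-LM3b. The ranges of all 3 groups overlapped. The log2 fold changes were -0.11 (95% interval -0.34 to 0.11) in MC38-LM3a and 0.06 (-0.17 to 0.28) in MC38-LM3b, with limma adjusted p = 0.45 and 0.65, and no alternative called either. With libraries left out they ranged from -0.196 to -0.068 in MC38-LM3a and from 0.008 to 0.099 in MC38-LM3b. The sign of the MC38-LM3b value turned after correction (-0.08).

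Of 7 further nectins and nectin-like genes 5 were tested. In MC38-LM3a 1 rose and 2 fell, and in MC38-LM3b 3 rose and 1 fell, with medians of 0.11 and 0.34, whereas after correction 3 rose and 2 fell in MC38-LM3a and 2 rose and 2 fell in MC38-LM3b. Crtam, a receptor of the nectin-like protein Cadm1 known from T and NK cells, rose from 6.01 ± 0.36 TPM in MC38-P to 8.91 ± 0.36 and 9.86 ± 0.27 (0.50 and 0.63, limma adjusted p = 0.00335 and 0.000596, with 0.53 and 0.39 after correction, both called). Cadm4, a cell adhesion molecule, was low at 1.85 ± 0.39, 1.08 ± 0.13 and 1.11 ± 0.23 TPM (-0.45 and -0.43, limma adjusted p = 0.032 and 0.026), and each call was lost without any of 3 libraries, MC38-P replicate 1 among them (adjusted p up to 0.12). After correction both Cadm4 values were called (-0.36 and -0.49, limma adjusted p = 0.039 and 0.0075). The other calls concern Nectin1, Cadm1 and Nectin3, named after their values were seen. Nectin1 fell in MC38-LM3a from 5.92 ± 1.31 to 3.14 ± 0.67 TPM (-0.74, limma adjusted p = 0.0075), Cadm1 rose in MC38-LM3b from 68.5 ± 8.5 to 95.2 ± 3.9 TPM (0.48, limma adjusted p = 0.0047), and the call of Nectin3 in MC38-LM3b was lost after correction (0.06, limma adjusted p = 0.43), whereas in MC38-LM3a it then passed (0.22, limma adjusted p = 0.012). The corrected values were -0.62 and -0.49 for Nectin1 (limma adjusted p = 0.00018 and 0.00076) and 0.21 in both comparisons for Cadm1 (limma adjusted p = 0.0022 and 0.0017), so each was called in both derivatives.

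Of 12 checkpoint receptors that lymphocytes and macrophages normally carry, 7 were listed and 2 tested. Tigit, the inhibitory receptor of Pvr and Nectin2, was at 21.6, 20.7 and 16.6 TPM in MC38-P, 16.8, 20.8 and 23.3 TPM in MC38-LM3a, and 24.5, 27.7 and 29.7 TPM in MC38-LM3b, a gene named after its values were seen. It was called in MC38-LM3b (0.46, limma adjusted p = 0.020), a call lost without MC38-P replicate 3, MC38-LM3b replicate 2 or MC38-LM3b replicate 3 (adjusted p = 0.062 to 0.078) and on median-centred values (0.24, limma adjusted p = 0.065). It was kept after the length and GC correction (0.47, limma adjusted p = 0.019). Ptprc, the pan-leukocyte marker, was at most 0.09 TPM in the same libraries.

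Lgals9 carried the only motif found in the promoter windows of the members, which is why its window is shown. It covers 250 bases before the start on the minus strand of GRCm38.p6, chr11:78984925-78985174, and capitals mark the interferon response motif on the opposite strand, which begins 55 bases before the start.
Lgals9: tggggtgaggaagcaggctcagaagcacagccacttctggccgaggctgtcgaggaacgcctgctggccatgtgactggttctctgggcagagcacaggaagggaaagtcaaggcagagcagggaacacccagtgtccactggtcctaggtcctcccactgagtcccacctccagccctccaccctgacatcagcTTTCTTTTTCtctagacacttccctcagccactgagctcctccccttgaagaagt
The Lgals9 levels were 70.6, 70.3 and 63.0 TPM in MC38-P, 75.4, 75.3 and 82.2 TPM in MC38-LM3a, and 83.8, 86.5 and 81.5 TPM in MC38-LM3b. Every derivative library was above MC38-P, and MC38-LM3a replicate 3 lay within the MC38-LM3b range. Lgals9 rose in MC38-LM3b by 0.30 ± 0.07 (SE, limma adjusted p = 0.0062), or 0.09 above the shift of all genes, and by 0.22 after correction (limma adjusted p = 0.0044). Centring on the median left 0.08 (limma adjusted p = 0.27) and quantile normalization 0.16 (limma adjusted p = 0.020). In MC38-LM3a the log2 fold change was 0.19 (limma adjusted p = 0.070), which passed under median centring (0.19, limma adjusted p = 0.025) and quantile normalization (0.19, limma adjusted p = 0.0091) but not after correction (0.13).

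Of 8 further galectins and ligands of Tim-3 or Lag-3, 6 were tested. In MC38-LM3a 3 rose and 1 fell, and in MC38-LM3b 2 rose and 1 fell, with medians of 0.36 and 0.19, and after correction 3 rose and 2 fell and 2 rose and 2 fell. Lgals3bp, a secreted galectin-binding glycoprotein, rose, at 27.5 ± 4.2, 50.8 ± 3.9 and 64.0 ± 3.2 TPM (0.87 and 1.20, limma adjusted p = 0.000249 and 2.3e-05, with 0.88 and 1.08 after correction, both called). Lgals8 (galectin-8) rose, at 28.1 ± 2.4, 36.8 ± 4.6 and 41.5 ± 1.1 TPM (0.38 and 0.55, limma adjusted p = 0.018 and 0.0016), the call in MC38-LM3a being lost with only the groups compared in the fit (adjusted p = 0.065) and both being kept after correction (0.33 and 0.35). Lgals1 (galectin-1), the most abundant at 4841 ± 585 TPM in MC38-P and named after its values were seen, fell in MC38-LM3b to 3085 ± 146 TPM (-0.64, limma adjusted p = 0.0051), and after correction was called in both derivatives (-0.46 and -0.59). The other calls in MC38-LM3a, Lgals3 (0.35) and Hmgb1 (-0.22), were chosen in the same way and were lost without any of 3 and of 4 libraries (adjusted p up to 0.084), Lgals3 also on median-centred values (adjusted p = 0.11). After correction Lgals3 was called in MC38-LM3a alone (0.32, limma adjusted p = 0.0063) and Hmgb1 in both derivatives (-0.30 and -0.36, limma adjusted p = 0.00051 and 0.00011). Havcr2 (Tim-3), the receptor of Lgals9, was at 5.53, 5.75 and 4.64 TPM in MC38-P, 10.8, 11.4 and 14.3 TPM in MC38-LM3a, and 16.1, 19.0 and 17.8 TPM in MC38-LM3b. The groups did not overlap, and Havcr2 was a DEG in both comparisons (1.06 and 1.56, limma adjusted p = 0.000214 and 1.2e-05), also after correction (1.00 and 1.36).

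Raet1e was higher in both derivatives by about the same amount. The MC38-P libraries held 43.4, 36.7 and 35.8 TPM, the MC38-LM3a libraries 63.1, 59.7 and 62.7 TPM, and the MC38-LM3b libraries 62.0, 61.1 and 60.9 TPM. All 6 derivative libraries were above all 3 MC38-P libraries, and the derivatives overlapped each other. Raet1e rose by 0.67 ± 0.08 (SE) in MC38-LM3a (limma adjusted p = 0.000198) and by 0.66 ± 0.08 in MC38-LM3b (limma adjusted p = 0.000152), the latter 1.59-fold on mean TPM. Relative to the shift of all genes the MC38-LM3b rise was 0.45, and after correction the rises were 0.56 and 0.51. Raet1e belongs to a family of near-identical genes, and reads of Raet1d could be shared with it, so their separate levels are uncertain. Raet1d, named after its values were seen, moved in the same direction, at 23.8 ± 3.4, 41.0 ± 2.2 and 46.2 ± 4.5 TPM (0.77 and 0.93, limma adjusted p = 0.000618 and 0.00013, with 0.63 and 0.74 after correction, both called).

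Other NK cell ligands were higher as well. Of 11 genes 6 were listed and 3 tested, and all 3 rose in both comparisons, with medians of 0.87 and 1.00 and the same counts after correction. Ulbp1 (MULT1), another NKG2D ligand, was at 17.4, 19.4 and 10.6 TPM in MC38-P, 57.6, 65.6 and 89.8 TPM in MC38-LM3a, and 86.5, 92.6 and 96.7 TPM in MC38-LM3b. Its lowest derivative value was above its highest MC38-P value, and it was a DEG in both (2.12 ± 0.20 and 2.51 ± 0.20 SE, limma adjusted p = 4.1e-05 and 1.0e-05), also after correction (2.14 and 2.23). Only 24 and 16 of the tested genes rose further. H2-T23 (Qa-1), which presents peptide to the inhibitory NKG2A receptor of NK and T cells, rose, at 17.4 ± 1.2, 32.5 ± 2.3 and 35.7 ± 2.1 TPM (0.87 and 1.00, limma adjusted p = 7.5e-05 and 2.2e-05, with 0.87 and 0.85 after correction, both called). Raet1e and Ulbp1 are ligands of an activating receptor, and H2-T23 of an inhibitory one.

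**Figure D3:**
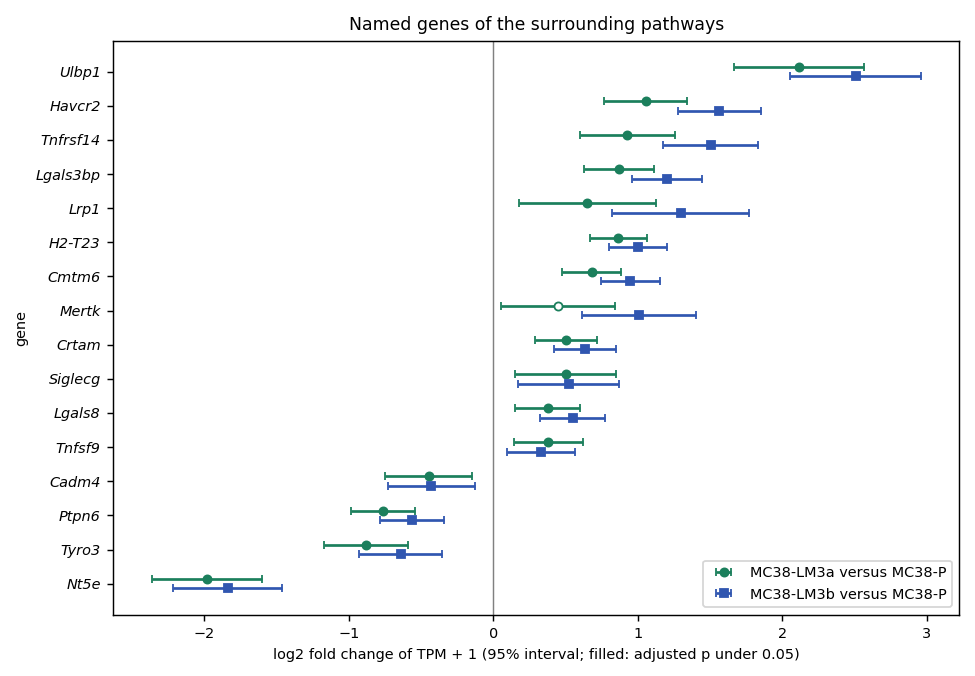
Log2 fold changes (x axis, with 95% intervals) of 16 genes named by rule from the surrounding pathways (y axis), for MC38-LM3a (green circles) and MC38-LM3b (blue squares) versus MC38-P. Filled symbols passed the test. The rule took only genes that passed in MC38-LM3a, MC38-LM3b or both, so the filled symbols are not evidence of their own. Siglecg is filled, but no rise is read from its test. Ulbp1 lies at 2.12 and 2.51 and Nt5e at -1.98 and -1.84, and Mertk alone has an open symbol, in MC38-LM3a.

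Soluble and metabolic suppressors were called in both directions. Of 10 genes 6 were tested, none rose and 1 fell in MC38-LM3a, and 1 rose and 2 fell in MC38-LM3b, with medians of -0.26 and 0.12. After correction 1 rose and 4 fell in MC38-LM3a and 1 rose and 3 fell in MC38-LM3b. Nt5e (CD73), the enzyme that forms immunosuppressive adenosine, was at 9.11, 8.03 and 6.36 TPM in MC38-P, 1.17, 0.88 and 1.66 TPM in MC38-LM3a, and 1.87, 1.22 and 1.30 TPM in MC38-LM3b. It fell in both derivatives (-1.98 ± 0.17 and -1.84 ± 0.17 SE on the log2 scale, limma adjusted p = 2.1e-05 and 2.6e-05), also after correction (-1.98 and -2.05), and 21 and 23 tested genes fell further. Csf1, the macrophage growth factor, was named after its values were seen. It was at 59.3 ± 7.7, 76.0 ± 12.6 and 94.9 ± 1.5 TPM and rose in MC38-LM3b (0.68, limma adjusted p = 0.0013), and after correction was called in both derivatives (0.39 and 0.47).

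Over the 10 pathway lists, 94 of 111 genes were listed and 68 tested. In MC38-LM3a 20 rose and 9 fell, against 14.1% of all tested genes called higher and 13.8% called lower, and in MC38-LM3b 42 rose and 6 fell, against 35.6% and 11.2%. The median log2 fold changes were 0.15 and 0.41, beside 0.00 and 0.21 for all tested genes. After correction 34 rose and 18 fell in MC38-LM3a, where 26.5% of all genes with a length were called higher and 24.6% lower. The corrected counts in MC38-LM3b were 36 and 15, where 29.3% were called higher and 28.3% lower.

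The derivatives were also compared directly, which asks whether their levels differed. No member passed the test for MC38-LM3b versus MC38-LM3a in limma, where 0.0532% of all tested genes were called, and the ranges of 2 members, Cd47 and Pvr, did not overlap, as for 42.0% of tested genes. In the same fit 3 members (Cd47, Cd274 and Pvr) had an unadjusted p under 0.05, as did 38.1% of tested genes. The log2 differences were 0.43 for Cd274 (95% interval 0.01 to 0.85), 0.42 for Pvr (0.12 to 0.72), 0.19 for Cd47 (0.02 to 0.36), 0.18 for Cd276 (-0.05 to 0.41), 0.17 for Nectin2 (-0.05 to 0.39) and 0.11 for Lgals9 (-0.05 to 0.27). For Cd24a and Raet1e they were 0.04 (-0.23 to 0.32) and -0.01 (-0.19 to 0.17). Relative to the median of all tested genes, 0.21, Cd274 and Pvr lay at 0.23 and 0.21 and the other 6 members below it. The result rested on 1 library. Without MC38-LM3a replicate 3 limma called 4 members higher in MC38-LM3b, namely Cd274 (0.63), Pvr (0.60), Cd276 (0.28) and Cd47 (0.24), but 56.4% of all tested genes were then called. Without MC38-P replicate 3 as well, 5 members and 71.7% of tested genes were called. Leaving out MC38-LM3a replicate 2 alone gave a smaller Cd274 difference, 0.27, which was not called (limma adjusted p = 0.39).

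**Figure D4:**
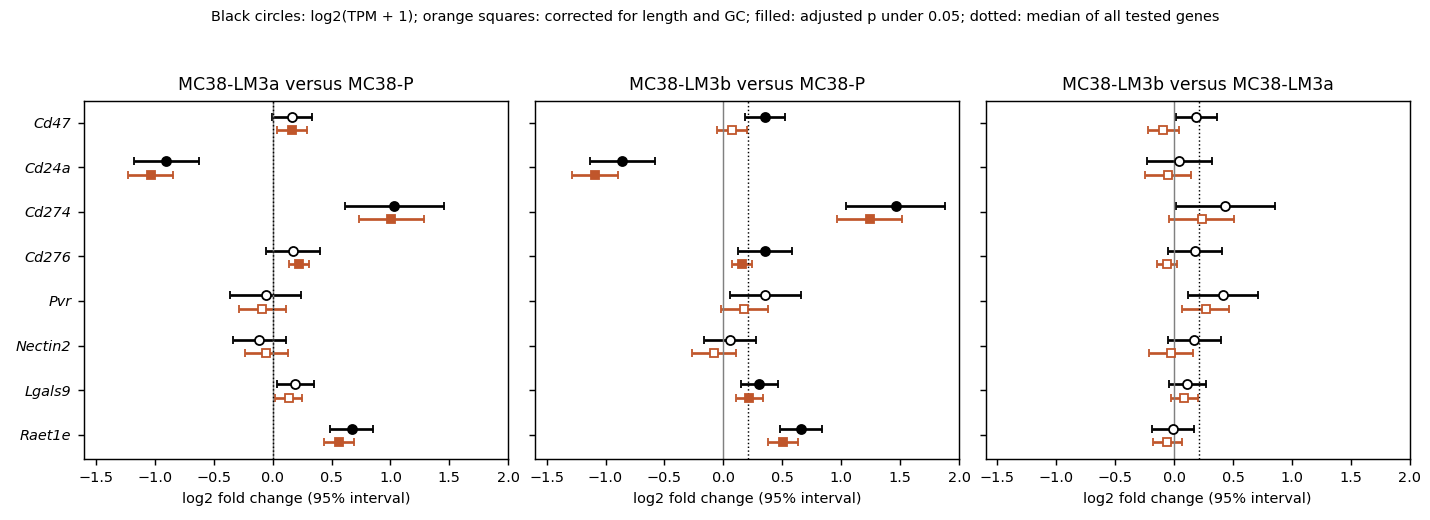
Log2 fold changes (x axis, with 95% intervals) of the 8 tested genes (y axis) in the 3 comparisons, on log2(TPM + 1) (black circles) and after correction for length and GC content (orange squares). Filled symbols passed the test and dotted lines mark the median of all tested genes, at 0.00, 0.21 and 0.21. Cd24a, Cd274 and Raet1e are filled on both scales in both comparisons with MC38-P, and no symbol is filled in MC38-LM3b versus MC38-LM3a.

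In MC38-P the order of TPM levels was Cd47, Cd276, Lgals9, Pvr, Raet1e, Cd24a, Nectin2, Cd274, Pdcd1lg2 and Sirpa, where the ranges of Cd276 and Lgals9 and those of Cd24a and Nectin2 overlapped. In MC38-LM3b Cd47, Cd276, Lgals9, Pvr and Raet1e kept that order, and Cd276 and Lgals9 again overlapped. In both derivatives Nectin2 stood above Cd24a without overlap, at 15.1 ± 1.6 against 8.88 ± 0.81 TPM in MC38-LM3a and 17.1 ± 0.1 against 9.23 ± 1.34 TPM in MC38-LM3b. In MC38-LM3a Raet1e (59.7 to 63.1 TPM) stood above Pvr on its mean, but the Pvr range of 41.8 to 64.2 TPM enclosed it.

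As a description over the 9 libraries, which share group differences and the length trend, the genes whose log2 levels followed Cd47 most closely were Jrkl, Limk1 and Ano8 (Pearson r = 0.996, 0.995 and 0.995). For Cd274 they were Stim1, Trappc12 and Jak3 (0.997, 0.996 and 0.996). On corrected values the lists differed entirely. They held Anapc11, Cbr4 and AU022252 for Cd47 (0.979, 0.975 and 0.973) and Ifi47, Uckl1 and Golph3l for Cd274 (0.995, 0.995 and 0.994).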

How the data were processed

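RNA of 9 MC38 libraries was poly(A)-selected and sequenced on DNBSEQ. The authors deposited TPM values per gene and library. The submitters' processing notes name HISAT and GRCm39, and the quantifier and annotation are not given in the sources used here. The count-based test the study names could not be run on TPM, so limma 3.58.1 (R 4.3.3) was used on log2(TPM + 1), with 1 mean per group over 9 libraries, a variance trend and Benjamini-Hochberg adjustment over 11287 genes with at least 1 TPM in 3 libraries. The pseudocount of 1 understates changes of low genes. Levels were corrected for transcript length and GC content by loess (span 0.3) as an alternative. On simulated data with 200 changed genes for MC38-LM3a versus MC38-P (11287 genes), 54, 191 and 200 were recovered at log2 changes of 0.5, 1 and 2. The simulated noise was independent between genes and held no trend along transcript length, so these counts do not describe recovery in the deposited libraries. Groups came from the labels. The members and lists were chosen with earlier results of these data known. From the lists, DEGs and the 2 genes per list with the largest mean change among those called in both derivatives were named. Some genes are counted in their lists but not reported here by name. Tables and figures used Python 3.11.15, numpy 2.4.6, pandas 2.3.3 and matplotlib 3.10.9. Depth is unknown, so no counting interval is given. Alternatives covered the pseudocount, filter, scaling, samples fitted, replicate block, variance trend and each library left out.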

Additional observations from a re-analysis of the deposited data

How the results depend on the processing

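Cd24a, Cd274 and Raet1e were called in the same direction under all 20 alternatives in both comparisons with MC38-P. The count of members called in MC38-LM3a was 6 under quantile normalization, 6 under median centring and 5 after length and GC correction, against 3, while the share of all genes called was 42.0%, 40.0% and 51.1%, against 28.0%. With 1 library left out it was 3 to 4, that in MC38-LM3b 5 to 7, and that for MC38-LM3b versus MC38-LM3a 0 to 4, where only leaving out MC38-LM3a replicate 3 gave a call. The share of all genes called in those fits was 18.6% to 37.4%, 33.0% to 59.0% and 0.0% to 56.4%. Without MC38-P replicate 3 and MC38-LM3a replicate 3, an alternative chosen after seeing the data, the last count was 5, where 71.7% of all genes were called. The count of pathway genes called in MC38-LM3a was 44 under quantile normalization, 52 after length and GC correction, 19 with only the groups compared, 47 under the replicate block with that correction and 51 without both libraries, against 29, while the share of all genes called was 42.0%, 51.1%, 18.6%, 47.4% and 63.6%. Without both libraries the MC38-LM3a values of Tnfsf9 (0.24), Lgals8 (0.21), Thbs1 (-1.09) and Cx3cl1 (-0.64) were all called. With 1 library left out it was 22 to 34, and that in MC38-LM3b 34 to 51. Replicate numbers did not pair the libraries (correlations of deviations between same-numbered MC38-P and MC38-LM3a libraries of -0.34, -0.17 and -0.66), although the 6 same-numbered pairs with MC38-LM3b were weakly positive (0.035 to 0.075). The replicate block gave 3, 5 and 0 members and 20 and 37 pathway genes, where 19.5%, 34.5% and 0.0177% of all genes were called, and Cd276 in MC38-LM3b then had limma adjusted p = 0.055. The block also ended the MC38-LM3a calls of Lrp1, Tnfsf9, Cadm4, Lgals8, Qpct, Cx3cl1, Vsir and Hmgb1 and the MC38-LM3b calls of Tnfsf9, Cadm4, Ptpn11, Cd40 and Nectin3 (limma adjusted p = 0.054 to 0.11), and with the correction it left Cd47 in MC38-LM3a uncalled (0.16, limma adjusted p = 0.068). Signs turned for MC38-LM3b versus MC38-LM3a in Cd47 (-0.032 under median centring, -0.091 after correction with or without the replicate block), Cd24a (-0.23 under quantile normalization, -0.18 under median centring, -0.052 after correction, and -0.026 to 0.16 with 1 library left out), Cd276 (-0.042 under median centring, -0.063 after correction), Nectin2 (-0.071 under quantile normalization, -0.051 under median centring, -0.028 after correction), Lgals9 (-0.035 under quantile normalization, -0.11 under median centring) and Raet1e (-0.035 to 0.0034 with 1 library left out). In MC38-LM3b versus MC38-P they turned for Nectin2 (-0.19, -0.17 and -0.080 in the same order) and Lgals3 (-0.020 under median centring). In MC38-LM3a versus MC38-P they turned only where libraries were left out, 1 at a time or both together, for Cd276 (-0.028 to 0.23), Pvr (-0.30 to 0.057), Ptpn11 (-0.16 to 0.20) and Nectin3 (-0.11 to 0.20), and for Tigit also after correction (-0.013, against -0.17 to 0.17). None of these results had passed the test before, and of the turned values Ptpn11 without both libraries passed (-0.16, limma adjusted p = 0.0056). The cause was not tested. Of 480 member values 422 kept direction and side of the threshold. TPM keep no depth, so depth sets no limit that can be stated, and the libraries of 1 group differ along transcript length.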
